A study of Homo sapiens with 6 samples.

Results

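The transcripts of 10 genes that activate, desaturate, elongate and re-esterify fatty acids, or that protect the resulting lipids, were examined in LM3 cells after ZNF706 knockdown. They were taken by gene symbol from the deposited table, which holds 33007 genes. All 10 symbols (ACSL1, ACSL3, ACSL4, ACSL5, LPCAT3, SCD, FADS1, FADS2, ELOVL5 and AIFM2) were found, each in a single row, and all 10 passed the filter on low counts. LM3 is an established human hepatocellular carcinoma (HCC) cell line with high metastatic ability. RNA-seq was compared between 3 vector control samples and 3 samples of cells with stable ZNF706 knockdown, and both groups are labelled with the genotype WT. Knockdown cells carried an shRNA in the lentiviral vector pLKO.1 and were selected with puromycin. A knockdown lowers a transcript without removing it, and no source used here gives the number of shRNAs or clones behind the sequenced samples. Nothing says that the samples of a group came from separate cultures, so p-values measure only the spread between these samples, which may be technical. The control libraries held 62684076, 64713764 and 63054445 counts, and the knockdown libraries held 68548419, 65861994 and 69057423. Every knockdown sample was therefore sequenced more deeply than every control sample.

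Long-chain fatty acids must be joined to coenzyme A before a cell can use them, and the long-chain acyl-CoA synthetases (ACSL) perform this step. ACSL4 prefers arachidonic and adrenic acid, whereas ACSL3 can activate monounsaturated fatty acids such as oleic acid. LPCAT3 then inserts polyunsaturated acyl chains into lysophospholipids. Phospholipids that carry such chains are the main substrates of the lipid peroxidation that kills cells by ferroptosis, an iron-dependent form of cell death. SCD makes monounsaturated fatty acids from saturated ones, and these are poor substrates of peroxidation. FADS2 and FADS1 introduce the double bonds of long polyunsaturated fatty acids, and ELOVL5 lengthens the chain between both steps. AIFM2, also known as FSP1, reduces coenzyme Q10 at the membrane and so traps lipid radicals.

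The 2 members of the group that passed the test below, ELOVL5 and ACSL1, were both lower after knockdown, and SCD was the most abundant member. The 250 bases before the RefSeq transcription start of these genes (GRCh38.p14) are shown so that their promoters can be compared. Capitals mark matches on either strand to CACGTG (an E-box, which the MYC and SREBP families can bind), CCAAT (bound by the NF-Y complex) and GGGCGG (bound by Sp1). No match to one motif overlapped a match to a different motif, though neighbouring GGGCGG matches can share a base. The ELOVL5 window is chr6:53348951-53349200 on the minus strand. The ACSL1 window is chr4:184825969-184826218 on the minus strand and lies before the outermost of its 5 RefSeq starts. The SCD window is chr10:100346983-100347232 on the plus strand.
ELOVL5: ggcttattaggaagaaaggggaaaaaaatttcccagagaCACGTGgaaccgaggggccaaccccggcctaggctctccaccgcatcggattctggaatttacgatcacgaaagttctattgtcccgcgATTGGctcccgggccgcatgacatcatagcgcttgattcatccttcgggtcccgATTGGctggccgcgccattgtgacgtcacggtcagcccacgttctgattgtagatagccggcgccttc
ACSL1: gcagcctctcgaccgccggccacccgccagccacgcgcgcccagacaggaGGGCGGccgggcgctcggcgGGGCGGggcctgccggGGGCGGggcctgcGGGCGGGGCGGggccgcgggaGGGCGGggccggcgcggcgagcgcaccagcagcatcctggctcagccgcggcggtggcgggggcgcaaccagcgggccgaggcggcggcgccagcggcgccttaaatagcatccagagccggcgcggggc
SCD: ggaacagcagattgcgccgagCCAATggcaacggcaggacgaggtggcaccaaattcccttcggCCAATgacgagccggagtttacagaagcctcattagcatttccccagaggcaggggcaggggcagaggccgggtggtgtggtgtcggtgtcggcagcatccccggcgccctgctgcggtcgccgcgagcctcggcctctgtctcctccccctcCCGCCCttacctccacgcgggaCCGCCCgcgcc
The ELOVL5 window held 1 E-box, beginning 211 bases before the start, and 2 CCAAT matches, but no GGGCGG match. This ACSL1 window held 6 GGGCGG matches and neither of the other motifs, and its GC content was 83.6% against 56% in ELOVL5. The SCD window held 2 CCAAT and 2 GGGCGG matches. All 10 genes had a window in the RefSeq table, 16 windows in all, and only the ELOVL5 window contained an E-box. Among all 35116 windows of this length, 6.34% held an E-box, 32% a CCAAT and 42.6% a GGGCGG match. These matches describe the letters of a window and are not evidence of binding.

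Before any comparison, the targeted gene and the cell identity were checked. ZNF706 was at 51.9, 55.1 and 54.7 CPM (a library's counts scaled to a common size, here with the trimmed mean of M-values, TMM) in control and at 33.5, 30.8 and 32.8 CPM in knockdown samples. The groups did not overlap, and ZNF706 fell by 39.9% (log2 fold change -0.73, SE 0.050, edgeR adjusted p = 3.7e-05, n = 3 per group). The defining hepatocyte genes were close to absent. Albumin (ALB) was between 0.5 and 3.57 FPKM (the authors' unit, fragments scaled by gene length and library size), and neither TTR nor HNF4A exceeded 0.23 FPKM in any sample. The keratins of liver tumour cells were abundant, with mean levels of 266 FPKM for KRT18 and 196 FPKM for KRT8. Of 12 hepatocyte and HCC markers, 11 were tested and 2 were lower after knockdown, SERPINA1 and APOB, both at low level (median of the list -0.67 on the log2 scale). Control replicate 1 and knockdown replicate 3 stood apart from the other 4 libraries across the groups. ALB had 189 and 138 counts in these libraries against 587 to 899 in the rest, GPC3 6 and 0 against 101 to 166, and the fibroblast gene COL1A2 117 and 119 against 0 to 8. Without these libraries 4 of the 11 markers were called lower, with ALB (edgeR adjusted p = 0.011) and APOA1 (0.0028) beside SERPINA1 and APOB. Results below are also given without both libraries where a call or a sign changed. In bulk RNA, fewer cells of a type and less RNA per cell cannot be told apart. The summed level of the list was 456, 467 and 489 FPKM in control and 454, 470 and 471 FPKM in knockdown samples, nearly all of it from KRT18 and KRT8, while 10 of the 11 tested markers had a negative log2 fold change. Summed markers of blood cells stayed at or below 0.36 FPKM, and CD14 was the most abundant of them. Endothelial markers summed to 1.79 to 2.06 FPKM in control and 1.43 to 1.69 FPKM in knockdown samples, with CDH5 the most abundant and VWF at or near 0, and CDH5 was called lower. Fibroblast and stellate markers summed to 7.77 to 8.05 FPKM in control and 9.55 to 9.89 FPKM in knockdown samples, mostly from COL1A1, and COL1A1 and PDGFRB were called higher. The part of these markers in the results was not tested.

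Across all genes tested, knockdown was accompanied by broad but mostly small changes. With edgeR's quasi-likelihood test and Benjamini-Hochberg adjustment, 4192 of 18390 genes had an adjusted p below 0.05. Of these, 1906 were higher and 2286 were lower after knockdown. With scaling by library size alone the split was 2742 higher and 1518 lower, since that scaling moved the median log2 fold change of all genes by 0.054.

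Among the 10 genes, 2 passed this threshold, a share of 20% where the background was 22.8%. None was called higher by edgeR or DESeq2 with their default scaling and all samples, against a background of 10.4%, although ACSL3 had an unadjusted edgeR p of 0.035. With edgeR 1 was higher with library size alone, with the length trend removed, without control replicate 1 or without both libraries that stood apart. Limma on the deposited FPKM gave 1 as well, and edgeR gave 2 with the GC trend removed. In the main edgeR fit 2 genes were lower, against a background of 12.4%. In TMM-scaled CPM the 3 control and 3 knockdown samples did not overlap for 4 of the 10 genes, and the same was true of 39.4% of all genes tested. One of these, ACSL3, was higher, and 3, namely ACSL1, LPCAT3 and ELOVL5, were lower (background 19.7% in the upward direction and 19.7% in the downward direction). A second rule asked for an unadjusted p below 0.05 together with a change of 0.3 or more on the log2 scale in either direction. No member met it, against a background of 15.5%. The shares of called and of separated genes were thus close to those of all genes tested. Among the 7715 genes with a mean count in the range of the 10, 38.2% were called (1007 higher and 1939 lower), a larger share than the members' 20%. Gene lists below stand beside all genes tested, and the part of count level in their called shares was not tested. The median absolute log2 fold change was 0.082 for the 10 genes, 0.198 for all genes tested and 0.124 for those of like count.

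The levels of the 10 genes spanned a wide range. By the deposited FPKM, SCD was highest with a mean of 90.2 ± 1.91 FPKM (SD, n = 6), followed by ELOVL5 with 50.1 ± 2.86 FPKM. ACSL4 (34.0 ± 1.43 FPKM) and ACSL3 (33.2 ± 1.68 FPKM) came next, and their ranges over the samples overlapped. FADS1 (15.2 FPKM) and LPCAT3 (13.8 FPKM) overlapped each other too, and AIFM2 (8.08 FPKM) stood alone. ACSL5 (3.89 FPKM), ACSL1 (3.35 FPKM) and FADS2 (2.96 FPKM) were lowest, each overlapping the next. These levels depend on the gene length used. With the summed counts taken as library size, the deposited values imply 11652 bases for FADS1 and 12044 bases for FADS2. These lengths are approximate, since they exceed the merged GENCODE 29 exons of 10230 and 11026 bases. The longest GENCODE 29 transcripts of FADS1 and FADS2 have 4525 and 5073 bases. Per kilobase of the longest transcript, FADS1 no longer overlapped LPCAT3, and FADS2 moved above ACSL1 and ACSL5, though its range still overlapped the ranges of both. ACSL3 then stood above ACSL4, and ACSL1 above ACSL5, with overlapping ranges within each pair.

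**Figure D1:**
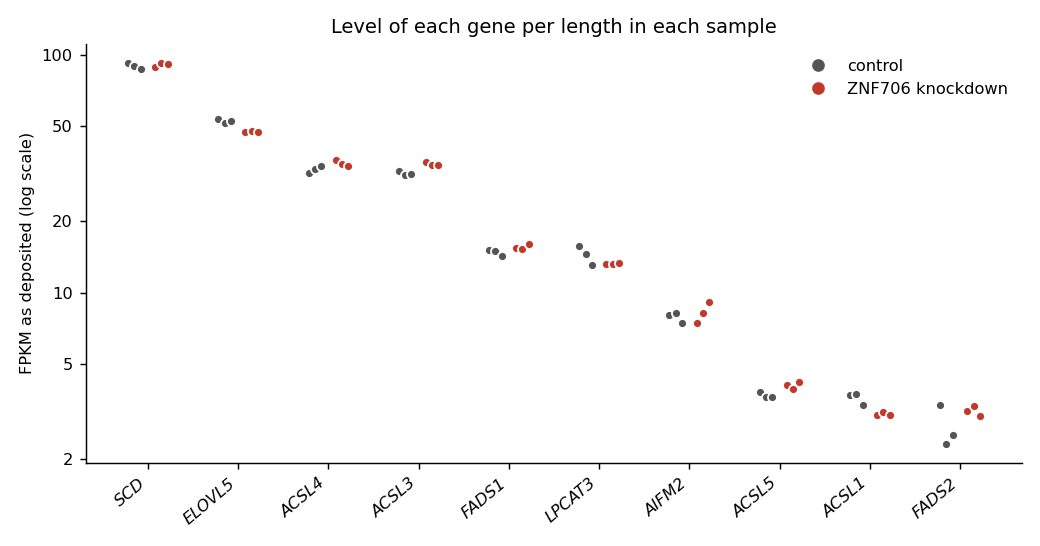
Deposited FPKM (log axis) of the 10 genes in each of the 6 samples, ordered by mean, with control samples in grey and ZNF706 knockdown samples in red. SCD sat near 90 FPKM, while ACSL5, ACSL1 and FADS2 sat between 2.31 and 4.21 FPKM.

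The synthetases were considered first. ACSL4 and ACSL3 supplied most of the ACSL transcripts in both groups. Of the summed FPKM of ACSL1, ACSL3, ACSL4, ACSL5 and ACSL6, ACSL4 took 45.8% ± 1.33 in control and 45.5% ± 0.397 in knockdown samples (SD, n = 3 each), and ACSL3 took 44.1% ± 0.981 and 45.1% ± 0.160. ACSL6, an isoform of brain and blood cells, was listed at 0.01 FPKM or below in every sample.

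ACSL1, the main isoform of liver and fat, lies on chromosome 4 (184755595 to 184826119, minus strand, GRCh38). It was at 26.9, 27.4 and 24.7 CPM in control and at 21.5, 22.2 and 21.7 CPM in knockdown samples. All knockdown values lay below all control values. ACSL1 fell by 17.3% (log2 fold change -0.27, SE 0.069, 95% confidence interval -0.43 to -0.12, edgeR adjusted p = 0.018). With 1 sample left out at a time, it kept an adjusted p below 0.05 in 3 of 6 edgeR fits, and the adjusted p ranged from 0.016 to 0.061. Without control replicate 1 and knockdown replicate 3 it was not called (log2 fold change -0.25, edgeR adjusted p = 0.10).

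ACSL3 lies on chromosome 2 (222860942 to 222942222, plus strand). Its level was 270.3, 262 and 267 CPM in control and 287, 279 and 278 CPM in knockdown samples. The groups did not overlap, and the difference was 5.48% (log2 fold change 0.077, 95% confidence interval 0.0067 to 0.15, edgeR adjusted p = 0.11). This call depended on scaling. ACSL3 was higher with an adjusted p of 0.017 when edgeR used library size alone, and with 0.0023 after removal of the GC trend fitted in every library. The longest ACSL3 transcript has a GC content of 38.1%, next to the lowest of the 10 genes.

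ACSL4, on the X chromosome (109624244 to 109733392, minus strand), was at 240.0, 251 and 261 CPM in control and at 265, 253 and 252 CPM in knockdown samples. The groups overlapped (log2 fold change 0.034, 95% confidence interval -0.056 to 0.12, edgeR adjusted p = 0.61). The interval of the log2 difference held no change larger than 0.12 in either direction. With the GC trend removed the log2 fold change was 0.15 (edgeR adjusted p = 0.027), and ACSL4 has the lowest GC content of the 10 genes, 37.4%.

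ACSL5, an isoform of intestine and liver on chromosome 10 (112374018 to 112428380, plus strand), ranged from 17.9 to 18.7 CPM in control and from 18.6 to 20.1 CPM in knockdown samples. The groups overlapped slightly (log2 fold change 0.087, 95% confidence interval -0.075 to 0.25, edgeR adjusted p = 0.45).

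Because ACSL1 and ACSL5 had like levels, their ratio was examined within each sample. The log2 ratio of ACSL1 to ACSL5 FPKM was -0.042, 0.043 and -0.12 in control samples and -0.43, -0.31 and -0.46 in knockdown samples. The ratio was lower in each knockdown sample than in any control sample, by a factor of 0.779. The two-sided exact permutation test gave p = 0.1, which is the smallest value that 3 against 3 samples allow, and 0.4 after adjustment over 4 ratios. The log2 ratio of ACSL4 to ACSL3 differed by -0.043 (exact permutation p = 0.4, adjusted 0.5), or by -0.078 without both libraries that stood apart, and its groups overlapped. ACSL1 took 5.01% ± 0.344 of the summed ACSL FPKM in control and 4.02% ± 0.139 in knockdown samples, without overlap (exact permutation p = 0.1, adjusted over 5 shares 0.5).

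**Figure D2:**
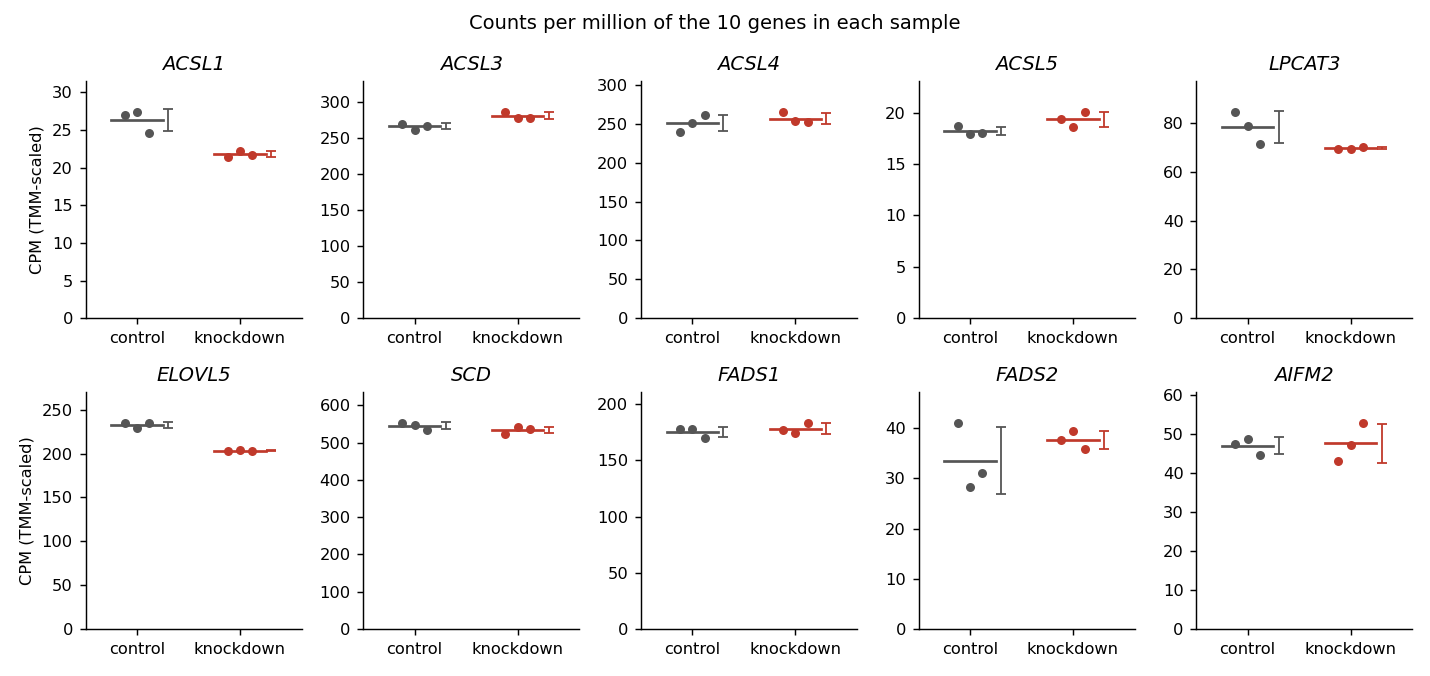
TMM-scaled CPM of each of the 10 genes in the 3 control samples (grey) and the 3 ZNF706 knockdown samples (red), on axes that start at 0. Points are samples, horizontal lines are means and error bars are SD. The groups separate for ACSL1, ACSL3, LPCAT3 and ELOVL5, and 1 control sample of FADS2 stands above the other two.

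LPCAT3 is on chromosome 12 (6976185 to 7018477, minus strand). It was at 84.5, 79.0 and 71.4 CPM in control and at 69.5, 69.4 and 70.3 CPM in knockdown samples. The knockdown values were nearly equal and lay below all control values in CPM, but control replicate 3 came close to them. By deposited FPKM the groups overlapped, with control replicate 3 at 12.99 FPKM and the knockdown samples at 13.20, 13.21 and 13.32 FPKM. The difference did not pass the threshold in edgeR (log2 fold change -0.17, SE 0.056, 95% confidence interval -0.29 to -0.042, adjusted p = 0.058). It passed with DESeq2 (adjusted p = 0.024), and in edgeR without control replicate 3 (log2 fold change -0.23, adjusted p = 0.0097) or with the GC trend removed (adjusted p = 0.040). LPCAT3 was not called with library size alone (edgeR adjusted p = 0.21) or without both libraries that stood apart (log2 fold change -0.11, edgeR adjusted p = 0.22). LPCAT3 exons share 3100 bases, 65.6% of their length, with EMG1 on the opposite strand. Whether counting used strand is not given in the sources used here, so reads from both genes cannot be told apart. For EMG1 the log2 fold change was -0.043 (edgeR adjusted p = 0.55).

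The 3 desaturases did not pass the test. SCD, on chromosome 10 (100347233 to 100364826, plus strand), was at 554, 547 and 535 CPM in control and 524, 542 and 537 CPM in knockdown samples, with overlap. Its log2 fold change of -0.030 (95% confidence interval -0.096 to 0.037, edgeR adjusted p = 0.54) changed sign to 0.024 with library size alone. SCD had the highest counts of the 10 genes, 32841 to 37553 per sample.

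FADS1, on chromosome 11 (61799627 to 61829318, minus strand), ranged from 169.8 to 178 CPM in control and from 175 to 184 CPM in knockdown samples. Its log2 fold change was 0.027 (95% confidence interval -0.054 to 0.11, edgeR adjusted p = 0.66). FADS2, its neighbour on the plus strand (61792980 to 61867354), was at 41.1, 28.4 and 31.1 CPM in control and at 37.6, 39.4 and 35.8 CPM in knockdown samples. A single control sample exceeded all others, and the groups overlapped. The log2 fold change was 0.17 with a wide interval (-0.096 to 0.43, edgeR adjusted p = 0.36). Without control replicate 1 it was 0.33 with an edgeR adjusted p of 0.014, so this library decides the call. Without both libraries that stood apart it was 0.37 (edgeR adjusted p = 0.017). FADS1 and FADS2 share 490 exon bases on opposite strands. The log2 ratio of FADS1 to FADS2 FPKM was 2.45 ± 0.271 in control and 2.29 ± 0.104 in knockdown samples (exact permutation p = 0.5), and that of SCD to FADS2 was 5.05 ± 0.264 and 4.84 ± 0.065 (exact permutation p = 0.4). Without both libraries that stood apart these log2 ratios differed by -0.36 and -0.39.

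ELOVL5, the elongase of polyunsaturated fatty acids, was lower after knockdown under every alternative. It lies on chromosome 6 (53267398 to 53349179, minus strand). Its level was 235, 229 and 235 CPM in control and 203, 204 and 203 CPM in knockdown samples. The gap between the groups exceeded the range within either. ELOVL5 fell by 12.7% (95% confidence interval -16.7% to -8.39%, log2 fold change -0.20, SE 0.031, edgeR adjusted p = 0.0018). It kept an adjusted p below 0.05 in all 18 alternative fits, among them the 6 that left out 1 sample and the fit without both libraries that stood apart. Removing the GC trend reduced the log2 fold change to -0.12 (edgeR adjusted p = 0.025). No other gene with more than 1 mean count overlaps ELOVL5.

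AIFM2, on chromosome 10 (70098223 to 70132934, minus strand), was at 47.6, 48.8 and 44.7 CPM in control and at 43.0, 47.1 and 52.9 CPM in knockdown samples. The knockdown samples spread on both sides of the control samples. The log2 fold change was 0.020 (95% confidence interval -0.14 to 0.18, edgeR adjusted p = 0.88), and it changed sign to -0.061 without knockdown replicate 3, to -0.052 without both libraries that stood apart and to -0.028 with the GC trend removed.

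**Figure D3:**
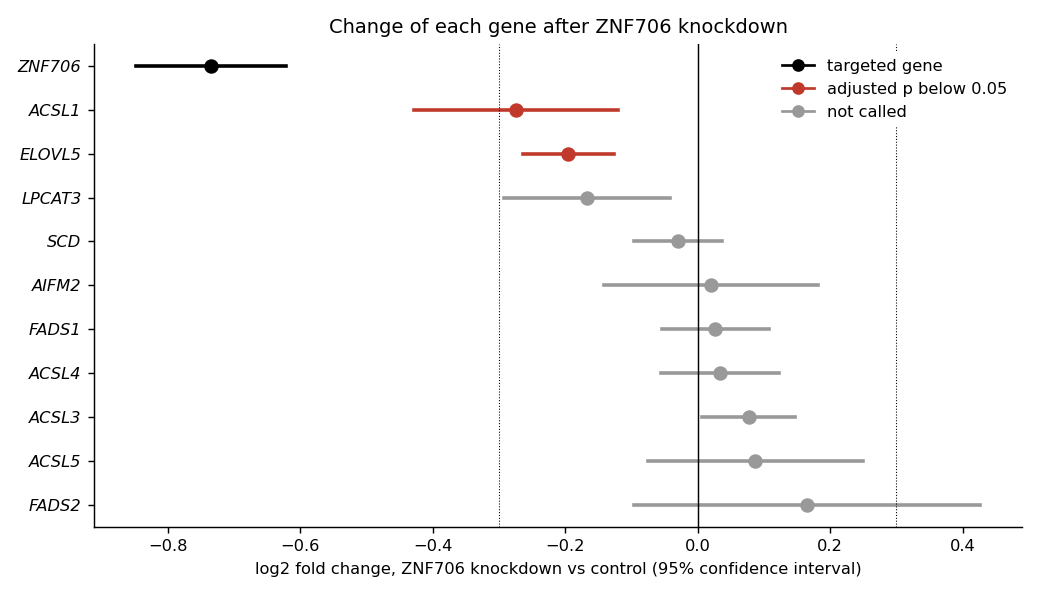
Log2 fold change of ZNF706 (black) and the 10 genes after ZNF706 knockdown, with 95% confidence intervals from edgeR. Red marks an adjusted p below 0.05 and grey the rest, and dotted lines mark 0.3 in either direction. ELOVL5 at -0.20 and ACSL1 at -0.27 are the called members, and FADS2 has the widest interval.

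**Figure D4:**
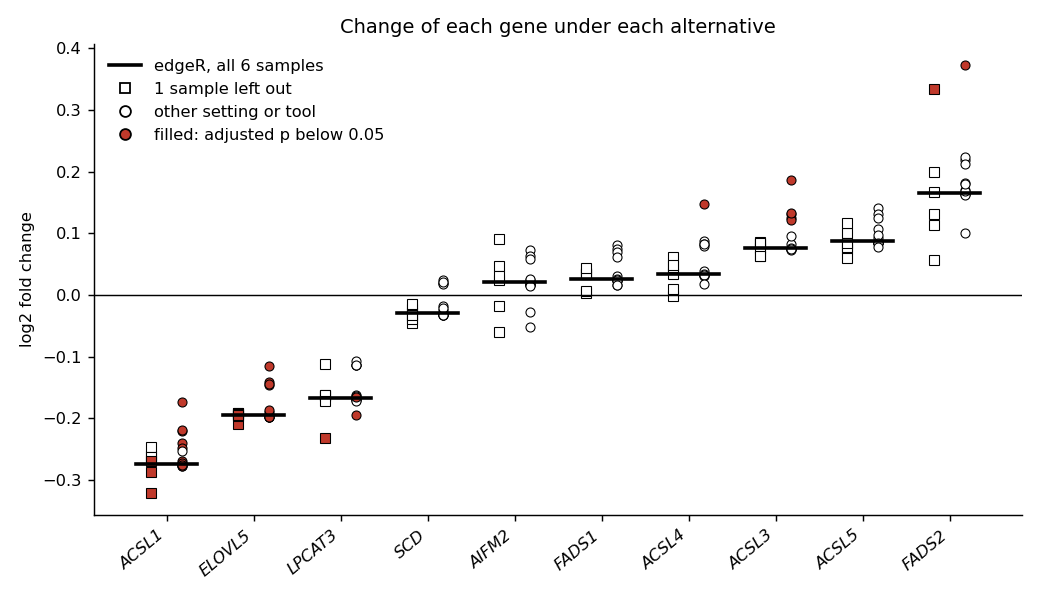
Log2 fold change of each gene under every alternative, with black bars for edgeR on all 6 samples, squares for fits without 1 sample and circles for other settings or tools. Filled symbols have an adjusted p below 0.05. ELOVL5 is filled throughout, ACSL1 is open in 3 fits without 1 sample and in the fit without both libraries that stood apart, and SCD, AIFM2 and ACSL4 have symbols on both sides of 0.

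Since ELOVL5 catalyses a single step, the other enzymes of the elongation cycle were examined. An elongase first condenses the acyl-CoA with malonyl-CoA, HSD17B12 reduces the product, the HACD dehydratases remove water, and TECR completes the cycle with a second reduction. HSD17B12 was at 15.1, 14.9 and 14.9 FPKM in control and 13.7, 13.7 and 13.8 FPKM in knockdown samples, and it fell (log2 fold change -0.17, SE 0.031, edgeR adjusted p = 0.0037). HACD3, a dehydratase, fell as well (log2 fold change -0.21, SE 0.033, edgeR adjusted p = 0.0018). HACD2 (log2 fold change -0.093, edgeR adjusted p = 0.060) and TECR (-0.11, edgeR adjusted p = 0.080) lay below all control samples in CPM without passing, though DESeq2 called HACD2 lower (adjusted p = 0.019). HACD1, the muscle dehydratase, stood at 0.32 on the log2 scale (edgeR adjusted p = 0.066) at 3.02 FPKM. The elongases ELOVL1 (0.12, edgeR adjusted p = 0.13) and ELOVL6 (0.26, edgeR adjusted p = 0.15) pointed upward without passing, and ELOVL1 was called higher with library size alone (edgeR adjusted p = 0.028). After removal of the GC trend HSD17B12 was no longer called (log2 fold change -0.062, edgeR adjusted p = 0.24) and HACD2 was at -0.0025, whereas HACD3 was still called (-0.14, edgeR adjusted p = 0.018) and HACD1 was called higher (0.41, edgeR adjusted p = 0.029). HACD1 was also called higher with library size alone (edgeR adjusted p = 0.037).

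**Figure D5:**
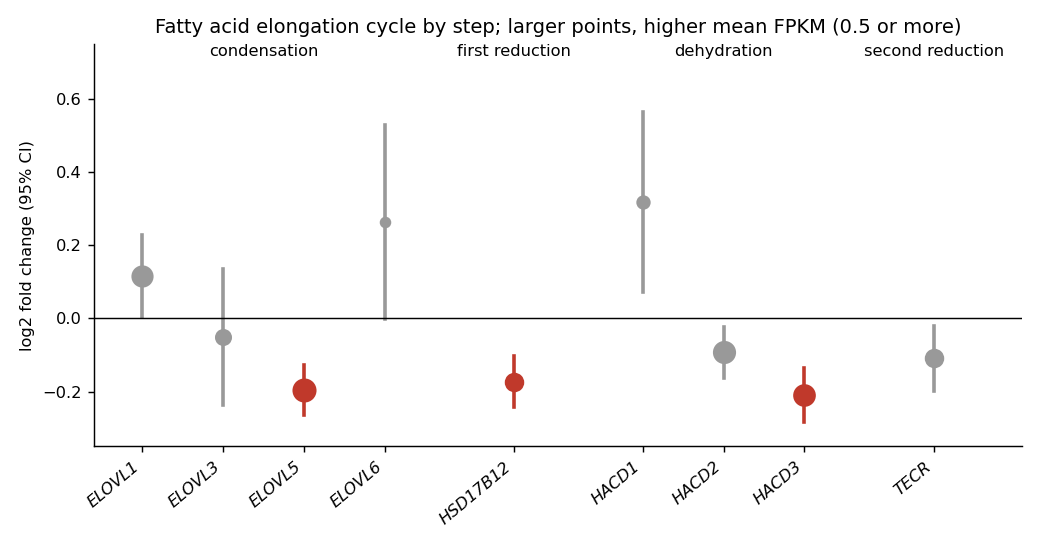
Log2 fold change with 95% confidence interval from edgeR for genes of the elongation cycle with a mean of at least 0.5 FPKM, grouped by step. Point size grows with mean FPKM, and red marks an adjusted p below 0.05. ELOVL5, HSD17B12 and HACD3 are red, 1 gene each at condensation, first reduction and dehydration.

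In the whole list of other desaturases and elongation enzymes, 3 of 15 tested genes were lower and none was higher (2, ELOVL1 and HACD1, had an unadjusted p below 0.05 in edgeR, and DESeq2 called 1), a called share of 20% beside 22.8% of all genes. The median was -0.051 on the log2 scale against 0.0095 for all genes tested. The third was DEGS1, the dihydroceramide desaturase and the most abundant gene of the list. DEGS1 was at 122, 130.3 and 125 FPKM in control and 104, 108 and 104 FPKM in knockdown samples (log2 fold change -0.30, SE 0.037, edgeR adjusted p = 0.00047). FADS3, the third gene of the FADS cluster, stood at 0.070 on the log2 scale (edgeR adjusted p = 0.36). Desaturases draw electrons from cytochrome b5 and its reductases. In a list of 7 genes, cytochrome b5 and reductase genes together with POR, CYB5B fell (log2 fold change -0.22, edgeR adjusted p = 0.0036). CYB5R1 rose (0.16, edgeR adjusted p = 0.0091, or 0.053 without both libraries that stood apart). CYB5A (0.085, edgeR adjusted p = 0.73) and CYB5R3 (0.11, edgeR adjusted p = 0.074) did not pass, though CYB5R3 was called higher with library size alone (edgeR adjusted p = 0.018) and with DESeq2 (adjusted p = 0.047). POR, the most abundant of the list, was at 0.081 (edgeR adjusted p = 0.30). The median of this list was 0.085, and its called share of 28.6% stood beside 22.8% of all genes.

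Of the other fatty acid activation enzymes, 18 of 20 listed genes were in the table, 12 were tested, 2 were higher and 2 were lower (33.3% called, beside 22.8% of all genes), and the median was -0.0057. ACSF2, a mitochondrial medium-chain acyl-CoA synthetase, was at 4.18, 3.77 and 3.60 FPKM in control and 2.16, 2.05 and 2.02 FPKM in knockdown samples. It fell further than any of the 10 genes (log2 fold change -0.93, SE 0.079, edgeR adjusted p = 8.8e-05). SLC27A1, a fatty acid transport protein with synthetase activity, rose from 0.14 to 0.15 FPKM in control to 0.30 to 0.32 FPKM in knockdown samples (log2 fold change 1.08, edgeR adjusted p = 0.0019). SLC27A5, the bile acid-CoA ligase, rose too (0.63, edgeR adjusted p = 0.0040) at a mean of 0.998 FPKM. SLC27A2, the very long-chain synthetase and the most abundant of the list at 18.4 FPKM, fell slightly (-0.17, edgeR adjusted p = 0.047) and was called in 1 of 6 fits that left out a sample.

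Among other acyltransferases of lysophospholipids and of glycerol-3-phosphate, 7 of 17 tested genes were called, 2 higher and 5 lower, with a median of -0.098. GPAT4, a glycerol-3-phosphate acyltransferase, was among the lower genes (log2 fold change -0.10, edgeR adjusted p = 0.049), but was called in 0 of 6 fits that left out a sample. GPAT4 was also not called with library size alone (edgeR adjusted p = 0.35) or without both libraries that stood apart (0.11). The called share of 41.2% stood beside 22.8% of all genes. LPCAT1, which serves saturated chains and is the most abundant at 40.8 FPKM, was at 42.7, 43.5 and 43.6 FPKM in control and 38.2, 38.7 and 38.3 FPKM in knockdown samples (log2 fold change -0.22, SE 0.031, edgeR adjusted p = 0.00097). LCLAT1, an acyltransferase of cardiolipin and phosphatidylinositol, fell by 0.31 on the log2 scale (edgeR adjusted p = 0.037), and LPCAT4 rose by 0.29 (edgeR adjusted p = 0.0093). LCLAT1 was not called with library size alone (edgeR adjusted p = 0.080) or with the GC trend removed (log2 fold change -0.21, edgeR adjusted p = 0.12). For the whole list the count was 3, 2 higher and 1 lower, with scaling by library size alone, so only part of the downward calls held. It was 4, 2 in each direction, without both libraries that stood apart.

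Acyl-CoA binding proteins and thioesterases buffer or hydrolyse the products of the synthetases. The list named after them also holds fatty acid binding proteins and carnitine palmitoyltransferases. It gave 5 higher and 2 lower genes of 20 tested, with a median of 0.11. The called share was 35%, beside 22.8% of all genes. CPT2, a carnitine palmitoyltransferase, was among the higher genes (0.28, edgeR adjusted p = 0.011). The most abundant gene of the list, DBI, was at 0.096 (edgeR adjusted p = 0.39). FABP1, the liver fatty acid binding protein, had the largest change (-1.61, edgeR adjusted p = 0.012) but averaged 0.248 FPKM. ACBD7 (0.71, edgeR adjusted p = 0.017) and ACOT1 (0.41, edgeR adjusted p = 0.016) rose, and ACOT1 reads may be split with its close copy ACOT2. The list gave 3 calls without control replicate 1, and also without both libraries that stood apart, where neither ACBD7 (edgeR adjusted p = 0.069) nor ACOT1 (0.11) was called.

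A mixed list of lipoxygenases and of genes tied to lipid radical defence, the setting of AIFM2, gave 3 higher and 3 lower genes of 22 tested. Its called share was 27.3%, beside 22.8% of all genes, with a median of 0.077. Because DHCR7 and AIFM1 are among its higher genes, this tally is not one of radical defence alone. The 3 lower genes were GCH1, NQO1 (-0.19, edgeR adjusted p = 0.021) and VKORC1L1 (-0.14, edgeR adjusted p = 0.026). With library size alone neither NQO1 (edgeR adjusted p = 0.079) nor VKORC1L1 (0.15) was called. VKORC1L1 was also not called without both libraries that stood apart (edgeR adjusted p = 0.097). GCH1, the first enzyme of tetrahydrobiopterin synthesis, was at 7.50, 8.37 and 7.94 FPKM in control and 6.12, 5.33 and 5.44 FPKM in knockdown samples (log2 fold change -0.54, SE 0.081, edgeR adjusted p = 0.0013). COQ5, a methyltransferase of coenzyme Q synthesis, rose by 0.47 on the log2 scale (SE 0.066, edgeR adjusted p = 0.00096). DHCR7, the last enzyme of cholesterol synthesis, rose by 0.39 (SE 0.043, edgeR adjusted p = 0.00030). PRDX6, the most abundant at 213 FPKM, was at -0.023 (edgeR adjusted p = 0.72) and changed sign to 0.031 with library size alone. GPX4, the phospholipid hydroperoxidase, was at 0.074 (edgeR adjusted p = 0.35) and changed sign to -0.0098 with the GC trend removed and to -0.0070 without both libraries that stood apart.

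Finally, transcription regulators of sterol and fatty acid genes were examined, of which 2 were higher and 4 lower among 19 tested (31.6% called, beside 22.8% of all genes; median -0.041). SREBF1 (-0.039, edgeR adjusted p = 0.46) and SREBF2 (-0.041, edgeR adjusted p = 0.47), the precursors of the SREBP factors, did not pass, and both changed sign with library size alone. With the GC trend removed SREBF1 was called lower (-0.12, edgeR adjusted p = 0.018). INSIG1, an SREBP target whose product retains SREBP in the endoplasmic reticulum when sterols are plentiful, rose (log2 fold change 0.37, SE 0.051, edgeR adjusted p = 0.00092), and so did NR1H3, the oxysterol receptor LXR-alpha (0.31, edgeR adjusted p = 0.0061). MLXIPL, the carbohydrate response factor ChREBP, fell (-0.94, edgeR adjusted p = 0.028) at 0.205 FPKM. SP1, the most abundant of the list, fell (-0.16, edgeR adjusted p = 0.0051). Of the NF-Y subunits, NFYA fell (-0.25, edgeR adjusted p = 0.0028), NFYC did not pass (0.072, edgeR adjusted p = 0.45), and NFYB fell (-0.24, edgeR adjusted p = 0.028) but was not called with library size alone (edgeR adjusted p = 0.070) or with the GC trend removed (edgeR adjusted p = 0.34). The balance of this list turned to 4 higher and 3 lower with library size alone, and to 4 higher and 2 lower with limma. NFYB, MLXIPL and LCLAT1 were each called in 1 of 6 fits that left out a sample. Without both libraries that stood apart, MLXIPL (edgeR adjusted p = 0.063), LCLAT1 (0.21) and SLC27A2 (0.075) were not called.

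The share of counts from mitochondrially encoded genes was 5.40%, 5.19% and 5.40% without knockdown and 5.03%, 5.02% and 4.79% with it. These groups did not overlap, and neither did the total counts. The part of depth and of this share in the differences above was not tested, and both cannot be told apart from the knockdown. GC content of the longest transcript ranged from 37.4% in ACSL4 to 58.6% in FADS2, and removal of each library's GC trend raised the number of called members from 2 to 5, with ACSL3 and ACSL4 higher and ACSL1, LPCAT3 and ELOVL5 lower.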

How the data were processed

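Reads were trimmed with cutadapt 1.9 and checked with FastQC (per the submitters' processing notes), and the authors mapped them with HISAT2 to GRCh38. Of the 32092 genes shared with GENCODE 29, 99.98% overlap their GRCh38 position there. The counting program, its use of strand and the annotation release are not given in the sources used here. The authors deposited raw counts per gene and FPKM, which they scaled by library size and gene length. Each value column carried a sample's title. Of 33007 genes, 1688 had no count.

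After filterByExpr and TMM scaling, counts were tested with edgeR 4.0.16 (glmQLFit, glmQLFTest, group only) in R 4.3.3, with adjustment over 18390 genes. A gene is called where the adjusted p is below 0.05. SE was derived from the fold change and its F statistic. Ratios and shares came from the deposited FPKM, with two-sided exact permutation tests over all divisions of the samples, enumerated in Python 3.11.15. The fit was tested on simulated data.

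The members and gene lists were chosen with earlier results of these data known. Named genes are ZNF706, the members and, from each list, the 3 called genes of largest change and the most abundant gene. HACD1, HACD2, TECR, ELOVL1, ELOVL6, FADS3, GPX4, SREBF1, SREBF2, NFYA, NFYB, NFYC, EMG1, FEN1, ZDHHC6, C1S, FASN, ACACA, ACACB, EHHADH, ECI2, ACADVL and ACADM were added after their values were seen, as were the KEGG lists in the closing section. Some genes of the lists are not reported here.

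Alternatives were DESeq2 1.42.0, its size factors, library size alone, no filter, a minimum mean count of 50, a replicate term, each sample left out, limma 3.58.1 on log2(FPKM + 0.1) and log2(FPKM + 1), removal of GC or length trends, the criteria with 0.3 on the log2 scale, and lengths implied by the deposited table. Longest transcripts, DESeq2 with a replicate term and the omission of both control replicate 1 and knockdown replicate 3 were added after seeing the data. Columns with the authors' fold changes and p-values were not used. Promoters are from RefSeq. The precision of a ratio is limited by the 3 samples per group, and that of a count by the depth given above.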

Additional observations from a re-analysis of the deposited data

How the results depend on the processing

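The count of called members was 1 to 3 when 1 sample was left out, falling to 1 without control replicate 2 or knockdown replicate 1. It was 5 with the GC trend removed and 0 under the criteria of an unadjusted p below 0.05 and a log2 fold change of at least 0.3. Over all genes, 2648 to 3424 were called with 1 sample left out, the lowest without knockdown replicate 2, 2990 without a filter, and 2820 without both libraries that stood apart (control replicate 1 and knockdown replicate 3).

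For the other activation enzymes the count of 4 was 2 with limma at either pseudocount. For other desaturases and elongation enzymes the count of 3 was 5 with DESeq2, with library size alone and with limma at either pseudocount. For electron donors it was 0, for regulators 3 and for the acyltransferases 1 under the criteria with 0.3. The 7 acyltransferases were 3 with library size alone, with no filter and with limma at either pseudocount, 4 with the GC trend removed, and 3 to 5 with 1 sample left out (3 without control replicate 2 or knockdown replicate 3). Without both libraries that stood apart, electron donors gave 1, acyltransferases 4 and the acyl-CoA binding and thioesterase list 3. The 7 called genes of the acyl-CoA binding and thioesterase list were 3 to 7 with 1 sample left out.

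Of 190 log2 fold changes of members under alternatives, 163 kept their direction and side of the threshold, 12 gained a call, 6 lost one and 9 changed sign. ACSL4 was -0.0012 to 0.061 with 1 sample left out, negative without control replicate 1. SCD was 0.024 with library size alone, 0.019 with limma at either pseudocount and 0.021 with the length trend removed. AIFM2 was -0.061 to 0.091 with 1 sample left out, negative without control replicate 3 (-0.017) or knockdown replicate 3, -0.052 without both libraries that stood apart and -0.028 with the GC trend removed. The knockdown minus control share of ACSL4 was -0.986 to 0.308 percentage points with 1 sample left out, positive without control replicate 3. Of other named genes, DBI was -0.0030 to 0.16 with 1 sample left out, negative without knockdown replicate 3, and GPX4 was -0.0098 with the GC trend removed and -0.0070 without both libraries that stood apart. PRDX6 was 0.031 with library size alone, 0.026 with limma at either pseudocount and 0.0083 with the GC trend removed. SREBF1 was 0.015 with library size alone, and 0.0098 and 0.0094 with limma at pseudocounts of 0.1 and 1. SREBF2 was 0.013, 0.0075 and 0.0072 under the same settings and 0.015 with the length trend removed. EMG1 was 0.011, 0.0047 and 0.0045. For these changes the cause was not tested.

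Same-numbered samples did not deviate together (correlations 0.034, -0.036 and -0.016), so numbers were not taken as pairs. With a replicate block, 2 members and 4361 genes were called. The GC trend was not removed together with the block for that reason. Ratios of 3 against 3 samples cannot pass an exact test.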

Other observations

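Gene lists taken from the table's own KEGG annotation, chosen after seeing the data, place the 10 genes in a wider setting. In fatty acid biosynthesis, 2 of 12 tested genes were higher and 2 lower, a called share of 33.3% beside 22.8% of all genes. FASN, the fatty acid synthase, was at 22.5, 22.4 and 21.9 FPKM in control and 26.5, 26.4 and 25.6 FPKM in knockdown samples (log2 fold change 0.18, SE 0.031, edgeR adjusted p = 0.0024), although it was not called with the GC trend removed (edgeR adjusted p = 0.089). Of the acetyl-CoA carboxylases that supply malonyl-CoA, ACACB rose (0.60, edgeR adjusted p = 0.010, or 0.059 without both libraries that stood apart) at 0.667 FPKM, whereas ACACA fell slightly (-0.11, edgeR adjusted p = 0.040) and was called in 0 of 6 fits without 1 sample and not without both libraries that stood apart (edgeR adjusted p = 0.16). In biosynthesis of unsaturated fatty acids, 4 of 26 tested genes were higher and 4 lower (30.8% called), and in fatty acid elongation, which includes the mitochondrial enzymes, 3 of 26 were higher and 3 lower (23.1% called), beside the same background.

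Fatty acid degradation gave 9 higher and 6 lower genes of 34 tested, a called share of 44.1% beside 22.8% of all genes. The median log2 fold change of the list was 0.082. EHHADH, the peroxisomal bifunctional enzyme, rose by 0.76 on the log2 scale (SE 0.15, edgeR adjusted p = 0.0056), and the enoyl-CoA isomerase ECI2 rose by 0.29 on that scale (SE 0.038, edgeR adjusted p = 0.00079). The mitochondrial dehydrogenases ACADVL and ACADM both fell by 0.20 on the log2 scale (SE 0.036 and 0.038, edgeR adjusted p = 0.0036 and 0.0052), and ACADM was not called with the GC trend removed (edgeR adjusted p = 0.10).

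Of 6 tested genes that lie within or across a member's locus, 3 were lower (FEN1, ZDHHC6 and C1S) and none was higher, beside 12.4% lower among all genes. FEN1, a DNA flap endonuclease beside FADS2 that shares 49 exon bases with it, was at -0.27 (SE 0.033, edgeR adjusted p = 0.00048). ZDHHC6, which shares 144 exon bases with ACSL5 on the opposite strand, was at -0.27 (edgeR adjusted p = 0.0022). C1S, a complement protease opposite LPCAT3 with no shared exon base, was at -0.24 (edgeR adjusted p = 0.0040). RefSeq places the start of FADS1 599 and 800 bases from the 2 starts of FADS2.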
